A study of Mus musculus with 54 samples.

Results

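The imprinted domain of distal mouse chromosome 7 was followed through 7 genes, H19, Igf2, Ascl2, Kcnq1, Kcnq1ot1, Cdkn1c and Phlda2. The members were the 50 kb windows of the allele-specific replication timing table that overlap their mm10 gene bodies, 12 distinct windows of 46268 in all and of 43941 on autosomes. The assay was Repli-Seq: newly made DNA takes up BrdU, sorting separates cells of early from cells of late S phase, and the labelled DNA of both fractions is sequenced, so that 54 libraries gave 27 profiles. Every profile has a value for each parental genome of an F1 hybrid, read here as log2 of early over late signal: a positive value means early replication.

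The groups were as follows. Mouse embryonic fibroblasts (MEFs) came from 4 embryos labelled as a Cas / 129 cross and gave 8 profiles, 2 from each. The labels call embryos 1 and 2 female, and embryos 3 and 4 male. Neural precursor cells (NPCs) were taken at day 11 of differentiation of the embryonic stem cell (ESC) lines F121-9 (129 / Cas, 1 profile) and Cas129 (Cas / 129, 2 profiles), both female. An extraembryonic endoderm (XEN) line, female and labelled C57B6 / Cas, gave 2 profiles. The ESCs were F121 (1 profile), F121-6 (4), F121-9 (4) and F123 (2), all labelled 129 / Cas, and Cas129 (2), labelled Cas / 129. F123 is male and the other lines are female. F121-6 and F121-9 had 2 profiles on inactivated fibroblast feeders and 2 in feeder-free 2i medium, which holds inhibitors of MEK and GSK3, and the other ESC profiles were from 2i. V6.5 (C57B6 and 129, male, 2i, 1 profile) completes the set. The strain named first in a cross label was read as the mother. Each cell line or embryo was 1 unit in the tests, and the read depth is unknown.

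Genomic imprinting leaves a gene active on the chromosome from 1 parent only. In this domain H19, a long noncoding RNA, is known to be expressed from the maternal chromosome and the growth factor gene Igf2 from the paternal one, under a shared control region that binds CTCF when unmethylated. A neighbouring control region carries the promoter of Kcnq1ot1, a long noncoding RNA of the paternal chromosome that silences genes around it in cis. Its known targets include the potassium channel gene Kcnq1, the cell cycle inhibitor Cdkn1c, the placental growth regulator Phlda2 and, in the placenta, the transcription factor Ascl2. Replication timing is a property of large chromosomal stretches, and early replication goes with open, transcribed chromatin as a rule.

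In mm10 the window that stood for each gene, that of greatest overlap, was chr7:142550001-142600000 for H19, chr7:142650001-142700000 for Igf2 and chr7:142950001-143000000 for Ascl2. Kcnq1 covers 7 windows, of which chr7:143150001-143200000 stood for it. Kcnq1ot1, which lies inside Kcnq1 and covers 2 windows, was read at chr7:143250001-143300000. Cdkn1c was read at chr7:143450001-143500000 and Phlda2 in the window after it, from 143500001. A window is far larger than a promoter, and it can hold several genes: Igf2 shares its window with Ins2, Cdkn1c with Slc22a18 and Phlda2 with Nap1l4.

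H19 and Igf2 each hold a microRNA, shown because their positions place them in the 2 members' windows with the largest timing differences from ESCs. The mature sequences, from RefSeq on GRCm38.p6, have the seed (bases 2 to 8) in capitals, and no seed is shared among the 4.
mmu-miR-675-5p (H19): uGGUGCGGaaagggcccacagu
mmu-miR-675-3p (H19): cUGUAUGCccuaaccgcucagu
mmu-miR-483-5p (Igf2): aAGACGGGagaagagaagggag
mmu-miR-483-3p (Igf2): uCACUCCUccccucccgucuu

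Promoters are given for Kcnq1ot1, the silencing RNA, and for Ascl2 and Phlda2, genes on either side of it. Each runs from 250 bases before to 50 bases after the start on the minus strand, with the motif CCAAT, searched on both strands (CCAAT or ATTGG), in capitals. They lie at chr7:143296498-143296797 (Kcnq1ot1), chr7:142969215-142969514 (Ascl2) and chr7:143502475-143502774 (Phlda2).
Kcnq1ot1: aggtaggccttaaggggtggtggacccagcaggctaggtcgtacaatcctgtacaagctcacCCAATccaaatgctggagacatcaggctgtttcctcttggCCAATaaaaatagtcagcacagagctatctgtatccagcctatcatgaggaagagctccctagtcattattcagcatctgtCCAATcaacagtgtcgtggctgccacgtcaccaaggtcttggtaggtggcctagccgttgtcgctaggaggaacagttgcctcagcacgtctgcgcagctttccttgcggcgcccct
Ascl2: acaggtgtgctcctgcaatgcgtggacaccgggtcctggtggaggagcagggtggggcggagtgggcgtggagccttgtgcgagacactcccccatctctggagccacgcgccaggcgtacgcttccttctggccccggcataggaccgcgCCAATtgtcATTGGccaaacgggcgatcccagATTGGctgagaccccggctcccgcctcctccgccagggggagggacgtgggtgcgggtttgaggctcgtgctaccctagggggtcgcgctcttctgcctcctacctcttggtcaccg
Phlda2: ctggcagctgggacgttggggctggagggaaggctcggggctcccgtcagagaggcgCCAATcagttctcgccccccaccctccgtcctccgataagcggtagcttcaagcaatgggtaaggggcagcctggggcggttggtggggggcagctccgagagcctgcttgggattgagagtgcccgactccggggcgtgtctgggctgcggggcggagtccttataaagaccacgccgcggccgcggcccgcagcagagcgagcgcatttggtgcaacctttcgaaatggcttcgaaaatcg
Kcnq1ot1 and Ascl2 hold 3 matches each and Phlda2 holds 1. Of 32851 RefSeq promoters of this length, 37.4% hold at least 1 match and 3.37% hold 3 or more. The number of CG pairs was 9 in Kcnq1ot1, 23 in Ascl2 and 26 in Phlda2, against a median of 7 over all these promoters.

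Facts that touch every result come first. The columns fall into 2 sets by their mean over all windows, -0.22 to -0.19 in MEF and XEN profiles and about -0.63 in ESC and NPC profiles, so levels compared between these sets depend on scaling. By median, timing at marker genes followed the cell type labels. The median percentile among autosomal windows was 81.5 for 8 MEF markers in MEFs (56.9 or less elsewhere) and 72.7 for 8 NPC markers in NPCs (56.6 or less). It was 81.2 for 7 XEN markers in XEN cells (74.4 or less elsewhere) and 84.0 for 8 ESC markers in ESCs (66.3 or less). Single markers did not all follow. Pou5f1, Klf4, Tdgf1, Col1a2, Fap, Dcn, Thy1 and Gata4 had a higher percentile in a cell type other than their own. On the X, embryos 1 and 3 go against their sex labels. The SD of the 129 X column was 0.255 to 0.301 in embryo 1 and 0.189 to 0.269 in embryo 4, a flat track, but 1.32 to 1.34 in embryo 3, like embryo 2. V6.5 gives no allelic information here, since its columns differed by at most 0.0158 over the members' windows.

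**Figure D1:**
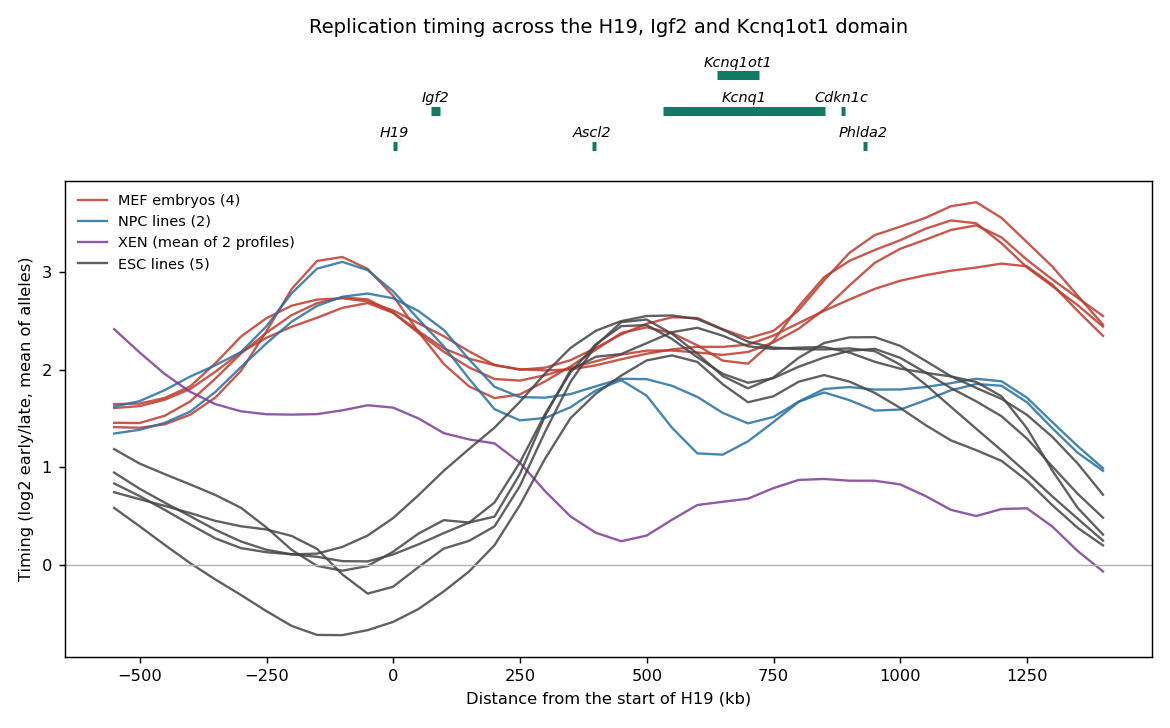
Timing (y axis, log2 early over late, mean of both alleles) in 50 kb windows against distance from the start of H19 in kb, with the 7 genes drawn to scale above. Each line is 1 embryo or cell line, and XEN is the mean of 2 profiles. ESC lines (grey) lie near 0 around H19 and near 2 from Ascl2 to Phlda2, and XEN (purple) is the lowest line from Ascl2 to Phlda2.

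H19 and Igf2 replicated early in MEFs and NPCs and near the middle of S phase in ESCs. H19 had a timing of 2.61, 2.59, 2.59 and 2.76 in MEF embryos 1 to 4. It had 2.81 in F121-9 NPCs and 2.74 in Cas129 NPCs. In ESCs it had -0.59 in F121, 0.13 in F121-6, 0.11 in F121-9, -0.23 in F123 and 0.48 in Cas129. These values average the media of F121-6 and F121-9, and no such line mean came within 2 units of any MEF embryo or NPC line. Single feeder profiles came closer, up to 1.61 in F121-6 replicate 2. The MEF mean was 2.64 ± 0.08 (SD, n = 4) against -0.02 ± 0.40 in ESCs (SD, n = 5).

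The H19 difference was 2.66 ± 0.19 (SE) for MEFs minus ESCs (limma, adjusted p = 3.33e-09) and 2.79 ± 0.24 for NPCs minus ESCs (adjusted p = 1.27e-07). Igf2 behaved alike, with 2.35, 2.22, 2.19 and 2.06 in the MEF embryos and 2.24 and 2.41 in F121-9 and Cas129 NPCs. Its ESC values were -0.27 (F121), 0.46 (F121-6), 0.32 (F121-9), 0.17 (F123) and 0.96 (Cas129). Its difference was 1.88 ± 0.20 for MEFs minus ESCs (adjusted p = 4.97e-07) and 2.00 ± 0.25 for NPCs minus ESCs (adjusted p = 7.72e-06). In XEN cells, which have other parents and entered no test, the 2 profiles had 2.05 and 1.17 at H19 and 1.83 and 0.87 at Igf2. These lay below every MEF and NPC unit and above every ESC line mean, except that Igf2 in XEN replicate 2 was below Cas129 ESCs. By single profile, F121-6 on feeders lay above XEN replicate 2, with 1.61 at H19 (feeder replicate 2 only) and 1.34 and 1.296 at Igf2. V6.5 ESCs had 0.29 at H19 and 0.27 at Igf2, within the range of the other ESC lines.

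On the other side of the domain the order of cell types was different. Ascl2 had 2.14 ± 0.09 in MEFs, 1.79 and 1.83 in NPCs and 2.16 ± 0.25 in ESCs. Kcnq1 averaged 2.30 ± 0.16 in MEFs, 1.14 (F121-9) and 1.72 (Cas129) in NPCs and 2.27 ± 0.20 in ESCs. Kcnq1ot1 averaged 2.21 ± 0.11 in MEFs, 1.27 and 1.45 in NPCs and 1.98 ± 0.27 in ESCs. Both NPC lines lay below the 5 ESC lines of 129 and Cas at Kcnq1 and Kcnq1ot1. V6.5 ESCs, with 1.67 and 1.14, lay below Cas129 NPCs at Kcnq1 and below both NPC lines at Kcnq1ot1. The repeats of Cas129 NPCs were far apart, with 2.04 and 1.41 at Kcnq1 and 2.01 and 0.896 at Kcnq1ot1, and at Kcnq1ot1 the first lay within the range of those 5 ESC lines. The differences for NPCs minus ESCs were -0.83 ± 0.21 at Kcnq1 (limma, adjusted p = 0.0033) and -0.62 ± 0.21 at Kcnq1ot1 (adjusted p = 0.019), both past the p threshold but under the size minimum of 1 for a call. Without Cas129 NPCs Kcnq1 had -1.12 (adjusted p = 0.0026), a call.

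Cdkn1c and Phlda2 were earliest in MEFs. Cdkn1c had 3.20, 2.72, 2.87 and 3.12 in the MEF embryos, 1.69 and 1.82 in the NPC lines, and 1.88 to 2.33 in ESCs (median line 2.20). Phlda2 had 3.38, 2.83, 3.10 and 3.23 in the MEF embryos, 1.58 and 1.798 in the NPC lines, and 1.76 to 2.34 in ESCs. All 4 MEF embryos lay above every NPC and ESC line at both genes. For MEFs minus NPCs the difference was 1.22 ± 0.20 at Cdkn1c (adjusted p = 1.01e-04) and 1.45 ± 0.21 at Phlda2 (adjusted p = 3.47e-05). For MEFs minus ESCs Phlda2 differed by 1.02 ± 0.17 (adjusted p = 4.37e-05), and Cdkn1c by 0.82 ± 0.16 (adjusted p = 2.15e-04), under the size minimum.

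**Figure D2:**
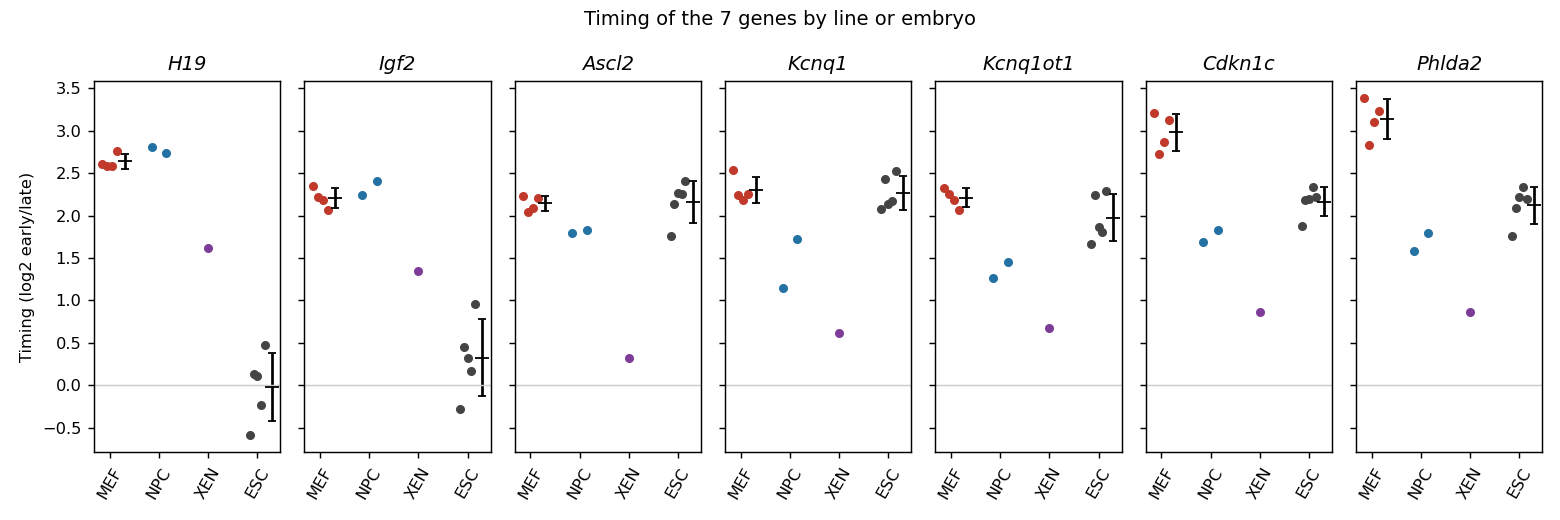
Timing (y axis, log2 early over late, mean of both alleles) of each gene's window in MEF embryos, NPC lines, the XEN line (mean of 2 profiles) and ESC lines. Points are embryos or lines, and bars give the mean ± SD where there are at least 4 units. H19 and Igf2 separate ESCs from MEFs and NPCs, and Cdkn1c and Phlda2 set MEFs above the other cells.

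In counts, 3 of 7 members were earlier in MEFs than in ESCs (H19, Igf2, Phlda2) and none later, against 30.3% and 13.7% of all windows called earlier and later. After median centring of the columns the windows split the other way, 8167 earlier and 12491 later in MEFs against 13311 and 6030 as deposited, and only H19 and Igf2 kept their call. The median difference over all windows moved from 0.38 as deposited to -0.26 after centring. With NPCs minus ESCs, which lie in 1 set of columns, 2 of 7 were earlier (H19, Igf2) and none later, against 16.4% and 16.1% of windows. For MEFs minus NPCs, 2 of 7 were earlier (Cdkn1c, Phlda2) and none later, against 25.7% and 7.64%. That last count depends on scaling: after centring, where windows split 5832 earlier and 9236 later in place of 11285 and 3358, no member was called, and Cdkn1c and Phlda2 had 0.59 (adjusted p = 0.033) and 0.81 (adjusted p = 0.0073). Without Cas129 NPCs Kcnq1 was also called, with 1.16 (adjusted p = 0.0026). With 7 members, the shares in both MEF comparisons lie near the background.

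The sign of the MEF minus ESC difference at Kcnq1 and Kcnq1ot1 depended on scaling. It was 0.03 and 0.23 as deposited (limma, adjusted p = 0.86 and 0.21), and -0.61 and -0.41 after centring, under the size minimum. The lowest adjusted p over 22 alternatives was 0.0044 at Kcnq1 and 0.030 at Kcnq1ot1 (limma), past the p threshold. Percentiles among autosomal windows, which do not depend on the level of a column, were 79.3 and 78.1 for these genes in MEFs, 73.2 and 72.4 in NPCs and 84.5 and 80.5 in ESCs. H19 lay at the 84.1 percentile in MEFs, 90.9 in NPCs and 57.01 in ESCs.

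The step between the sides of the domain summarises these values as a description. Averaged over the 10 windows from Ascl2 to Phlda2, minus the 2 windows of H19 and Igf2, it was 0.08 ± 0.08 in MEFs (n = 4), -1.03 and -0.87 in F121-9 and Cas129 NPCs, -0.78 in XEN cells and 1.99 ± 0.27 in ESCs (n = 5). In ESCs the side with Kcnq1ot1 was the earlier in all 5 lines, and in both NPC lines it was the later. In MEFs it lay between -0.01 and 0.18.

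The earlier timing in NPCs was not bounded by H19 and Igf2. Of the 40 windows of the stretch that starts at 142000001, 14 were called earlier in NPCs than in ESCs, running without a gap from 142100001 to 142800000. The difference was highest, 3.06, in the window from 142450001, on the side of H19 away from Igf2 where the leukocyte gene Lsp1 lies. For MEFs minus NPCs, 11 windows were called in 1 run from 143450001, the Cdkn1c window, to the end of the stretch, with differences of 1.22 to 1.59. The neighbour genes followed these runs: 6 of 12 were earlier in MEFs than in NPCs (Slc22a18, Nap1l4, Cars, Tnfrsf22, Tnfrsf23 and Osbpl5, median of all 12 0.86 against 0.35 over all windows), and 1 of 12, Ins2, earlier in NPCs than in ESCs. In MEFs minus ESCs, 6 of 12 were earlier, with a median of 0.92 against 0.38 over all windows. Of all windows, 25.7% were called earlier in MEFs than in NPCs, 16.4% in NPCs than in ESCs and 30.3% in MEFs than in ESCs. Ins2, Slc22a18 and Nap1l4 add no window of their own.

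Flanking genes outside the imprinted domain differed as well. Of 18 with a window, 10 genes in 7 distinct windows were earlier in MEFs than in ESCs (median difference 1.93 against 0.38 over all windows, of which 30.3% were called), and none was later. In NPCs, 7 genes in 5 windows were earlier than in ESCs (median 0.61 against 0.03, with 16.4% of all windows called earlier), and none was later. Genes known to act with IGF2 showed no single direction. Of 16, 4 were earlier in MEFs than in ESCs and another 4 later, against 30.3% and 13.7% of all windows. The largest differences among the earlier ones were at the insulin receptor substrates Irs1 (4.36 ± 0.17, SE, limma, adjusted p = 4.07e-12) and Irs2 (3.997 ± 0.25, adjusted p = 7.90e-10). The later ones included the insulin receptor gene Insr (-1.60 ± 0.17, adjusted p = 2.93e-07). Of 12 imprint control genes with a window, 1 was earlier in MEFs than in ESCs (Eed, a Polycomb subunit, 1.099) and 3 later, against the same shares of all windows. Among the later ones were Dppa3 (-1.87), which protects methylation in the early embryo, and the Polycomb methyltransferase Ezh2 (-1.96).

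The next question was whether the 2 alleles of each gene replicate at different times. In ESCs no member was called (limma), and 1 of 7 had an unadjusted p under 0.05, Ascl2 with 0.26 ± 0.12 (129 minus Cas, adjusted p = 0.091). Of all windows 25.2% were called and 47.7% had an unadjusted p under 0.05. Cas129 is of the opposite cross to the other lines, so a difference by parent partly cancels in this mean. The other 6 differences lay between -0.10 and 0.13. Single lines differed more: at H19 the difference was -0.10 in F121, -0.37 in F121-6, -0.0046 in F121-9, 0.64 in F123 and 0.01 in Cas129, so the lines lay on either side of 0. F123, the male line, had the widest gap at H19 and Ascl2 (0.69). Outside the members, 5 ESC windows from 142100001 to 142350000 were calls with Cas earlier, by -0.94 to -0.64 (129 minus Cas).

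In NPCs no member was called and none had an unadjusted p under 0.05, against 4.71% of windows called and 19.5% with such a p. With 2 lines this group has the widest intervals, as the SE of 0.13 to 0.20 over the members shows. The 2 lines are of opposite crosses, so a difference by parent enters this mean with opposite signs. The test therefore cannot speak to parent of origin. The largest difference was at Ascl2, -0.31 ± 0.18, with -0.37 in F121-9 and -0.25 in Cas129. At Phlda2 the lines disagreed, with 0.51 in F121-9 and -0.04 in Cas129.

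**Figure D3:**
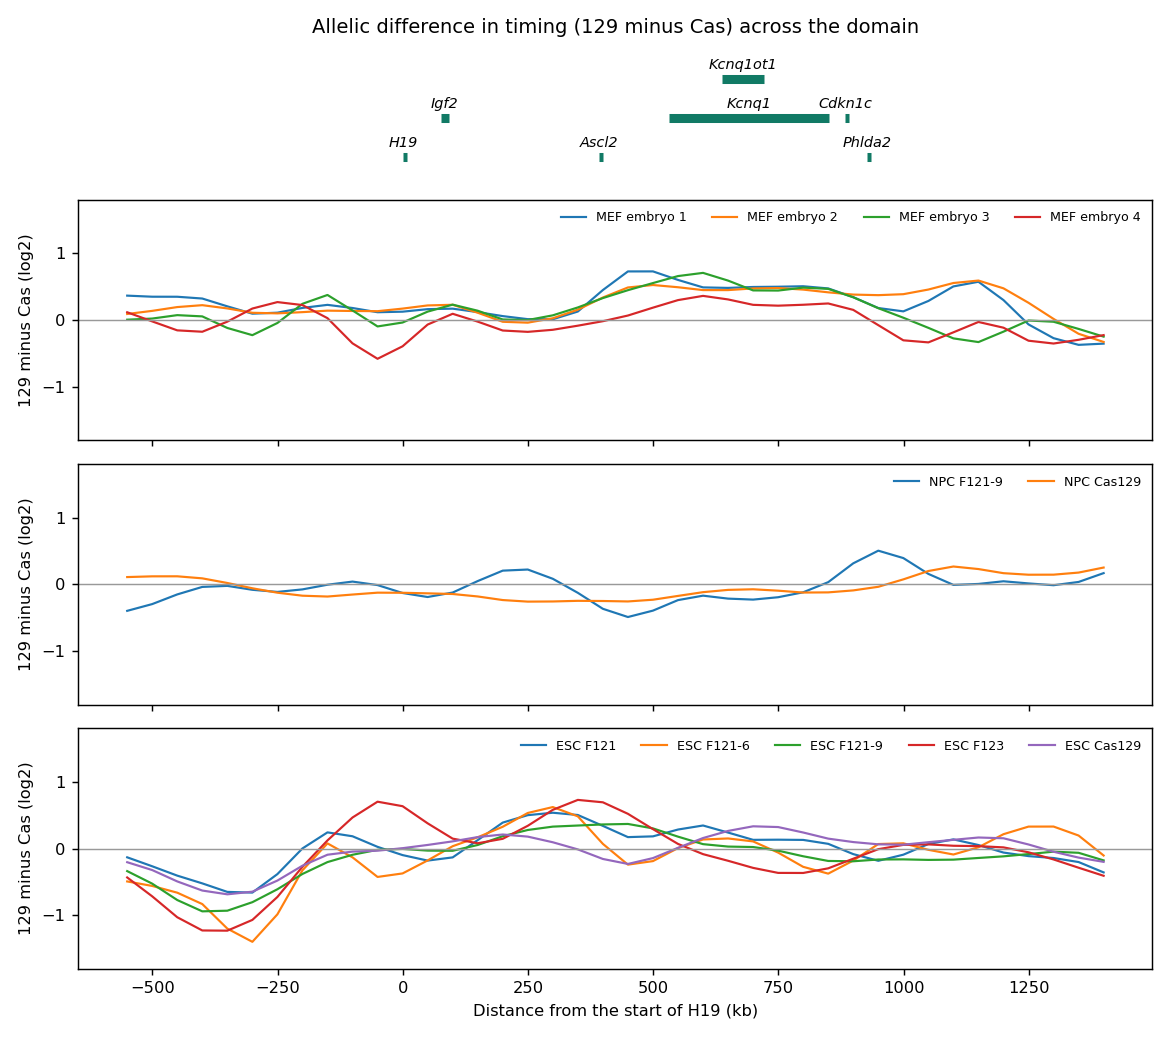
Allelic difference in timing (y axis, 129 minus Cas, log2) against distance from the start of H19 in kb, for MEF embryos, NPC lines and ESC lines from top to bottom. The 4 MEF lines run together above 0 over Kcnq1. The NPC lines lie below 0 there, except F121-9 in the last window of the gene (0.03), and the ESC lines lie on both sides of 0.

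In MEFs the 129 allele of Kcnq1 replicated earlier than the Cas allele, the 1 call among the members. Kcnq1 had an allelic difference of 0.49, 0.45, 0.71 and 0.36 in embryos 1 to 4, so 129 was earlier in all 4. Its 129 allele had 2.55 ± 0.16 and its Cas allele 2.05 ± 0.19 (SD, n = 4). The mean of 0.50 ± 0.10 (SE, limma, adjusted p = 0.0029) was a call, just past the size minimum of 0.5. Kcnq1ot1 had 0.50, 0.48, 0.45 and 0.23 (mean 0.41 ± 0.11, adjusted p = 0.016) and Cdkn1c 0.35, 0.38, 0.34 and 0.15 (mean 0.31 ± 0.10, adjusted p = 0.044). Both passed the p threshold and not the size minimum.

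The remaining genes did not pass. Ascl2 had 0.45, 0.34, 0.33 and -0.01 in embryos 1 to 4, Phlda2 had 0.18, 0.38, 0.18 and -0.07, and Igf2 had 0.17, 0.23, 0.23 and 0.10, with adjusted p of 0.16, 0.34 and 0.17. H19 lay on either side of 0, with 0.13, 0.17, -0.03 and -0.39. Embryo 4 had the lowest difference at each of the 7 genes. The count was 1 of 7 earlier on 129 and none earlier on Cas, against 5.5% and 7.36% of windows, and 3 of 7 by the p threshold alone, against 9.53%. These 3 genes lie close together, with Kcnq1ot1 inside Kcnq1, and are not independent.

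The MEF difference filled the whole Kcnq1 gene body: all 7 of its windows passed the p threshold, with differences of 0.40 to 0.51, and 2 were calls. Timing of neighbouring windows in the stretch correlated at 0.921 to 0.966 in the MEF allele columns (Pearson's r), so these windows are not independent. In the stretch of 40 windows 3 were called, in 1 run from 143050001 to 143200000, whose first window also holds Cd81, a tetraspanin gene, Tssc4 and the taste channel gene Trpm5 (0.50, adjusted p = 0.0091, 3 of 12 neighbours). None of 18 flanking genes was called. The paternal chromosome is 129 in these embryos, by the reading of the cross label. All 4 embryos are of 1 cross, so strain and parent of origin cannot be told apart in MEFs.

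The Kcnq1 call depends on small changes. It was lost without embryo 3 (0.44, adjusted p = 0.025), without embryos 1 and 3 (0.41, adjusted p = 0.16), with units labelled female only (0.47, adjusted p = 0.082) and as a mean over all windows of the gene (0.45, adjusted p = 0.0063). The sign was the same under all 22 alternatives.

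The change of the allelic difference between cell types was tested directly. The MEF embryos and all ESC lines but Cas129 are of opposite crosses. Cell type and cross direction therefore cannot be told apart for MEFs minus ESCs. For MEFs minus ESCs no member was called, against 27.4% of windows, and 3 of 7 had an unadjusted p under 0.05 (limma), against 40.8% of windows. By adjusted p alone 2 of 7 passed, against 30.9%, so these shares lie near the background. Kcnq1 had 0.38 ± 0.13 (adjusted p = 0.045) and Cdkn1c 0.41 ± 0.13 (adjusted p = 0.034), past the p threshold and under the size minimum, and Kcnq1ot1 had 0.35 ± 0.15 (adjusted p = 0.086). Of the 7 windows of Kcnq1, 4 passed the p threshold and 1 was a call. For NPCs minus ESCs no member was called against 16.1% of windows. Ascl2, with an unadjusted p of 0.022, had -0.57 ± 0.22 (adjusted p = 0.096), and without Cas129 ESCs it had -0.67 (adjusted p = 0.044), a call. The NPC and ESC lines hold both crosses in unlike shares, and without Cas129 ESCs the ESC lines are all of 1 cross. Cross direction therefore enters the difference of NPCs minus ESCs too.

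**Figure D4:**
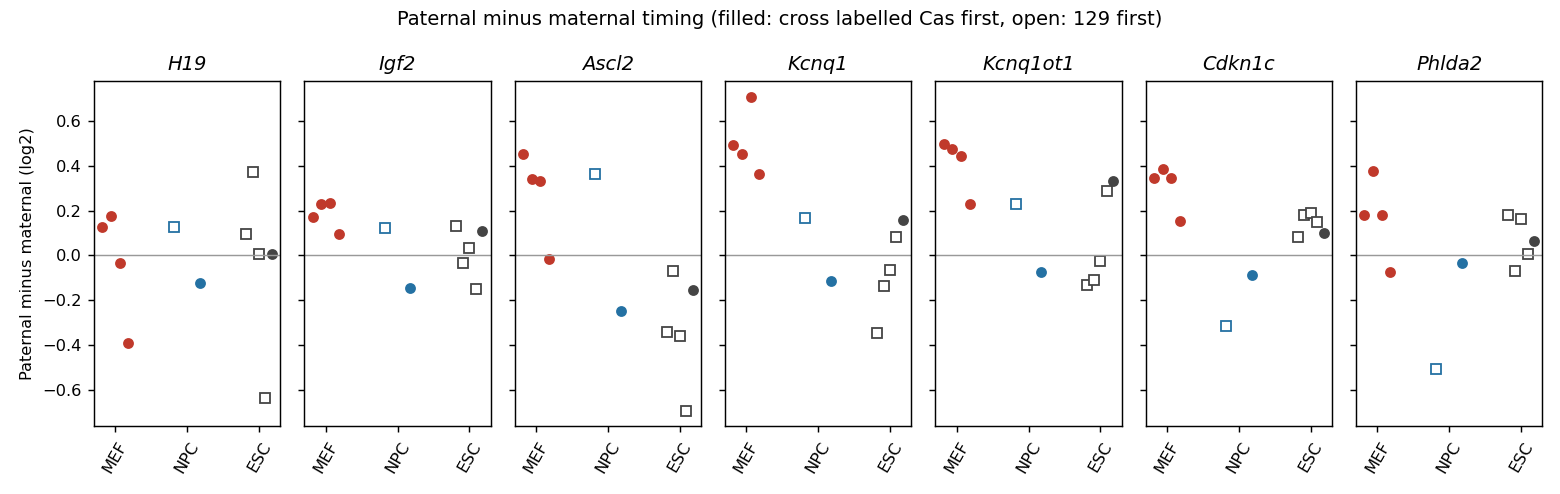
Paternal minus maternal timing (y axis, log2) of each gene in MEF embryos, NPC lines and ESC lines, with the first strain of the cross label read as the mother. Filled points are crosses with Cas first and open squares crosses with 129 first. Each ESC point is the mean over a line's media. Kcnq1 lies above 0 in all 4 MEF embryos, and the ESC lines lie on both sides of 0 at each gene except Ascl2 (all below) and Cdkn1c (all above).

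Read by parent, the ESC and NPC lines hold both crosses. Kcnq1ot1 paternal minus maternal was 0.23 in F121-9 NPCs and -0.07 in Cas129 NPCs, and in ESCs -0.13 (F121), -0.11 (F121-6), -0.02 (F121-9), 0.29 (F123) and 0.33 (Cas129). Neither parent led in all lines, and F121-6 had -0.43 in 2i and 0.22 on feeders. At Cdkn1c paternal minus maternal was -0.32 in F121-9 NPCs and -0.09 in Cas129 NPCs. In ESCs, averaged over media, it was 0.08 (F121), 0.18 (F121-6), 0.19 (F121-9), 0.15 (F123) and 0.10 (Cas129). The means of F121-6 and F121-9 rest on the feeder profiles, with 0.34 and 0.46, against 0.016 and -0.083 in 2i, so the sign turned in F121-9 in 2i. These ESC gaps are smaller than many between repeat profiles of 1 line: in Cas129 the gap in the allelic difference between repeats was up to 0.56 over the members. At Ascl2 paternal minus maternal was below 0 in all ESC lines: -0.34 (F121), -0.07 (F121-6), -0.36 (F121-9), -0.69 (F123) and -0.155 (Cas129). It was 0.10 in F121-6 on feeders, and 0.37 in F121-9 NPCs and -0.25 in Cas129 NPCs. The F123 repeats differed there by 0.79.

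The test of cross direction compared the 2i profiles of Cas129, the only ESC line with Cas first, with those of the 4 lines with 129 first. No member was called (limma), no window of the 43941 was (0%), and no member had an unadjusted p under 0.05, against 3.09% of all windows. The differences ran from -0.58 ± 0.30 (SE) at Ascl2 to 0.26 ± 0.34 at Kcnq1ot1. With 1 line on a side, the SE over the members ran from 0.28 to 0.40. What size of difference this test could detect was not simulated, so the lack of calls does not show equal timing.

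XEN cells replicated the Kcnq1 side later than all the other cells. Timing was 0.24 and 0.41 at Ascl2, 0.84 and 0.39 at Kcnq1, 0.92 and 0.44 at Kcnq1ot1, 1.25 and 0.47 at Cdkn1c and 1.23 and 0.49 at Phlda2 in replicates 1 and 2. Each XEN value lay below the mean of every MEF, NPC and ESC unit at the same gene. By single profile, Cas129 NPC replicate 2 had 0.896 at Kcnq1ot1, below XEN replicate 1. The C57B6 allele was the earlier at these 5 genes in both profiles. Its lead over Cas was 0.40 and 0.84 at Ascl2, 1.49 and 0.91 at Kcnq1, 1.40 and 0.72 at Kcnq1ot1, 1.90 and 0.63 at Cdkn1c and 1.96 and 0.64 at Phlda2.

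The Cas allele of the XEN line was near 0 over this side, with 0.22 and 0.08 at Kcnq1ot1, while its C57B6 allele had 1.62 and 0.80. C57B6 is the maternal strain by the reading of the cross label. At H19 the C57B6 lead was 1.88 in replicate 1 and 0.25 in replicate 2, and at Igf2 1.02 and -0.50. The lead was not bounded by the members. As the mean of both profiles it was 1.297 in the window of the flanking gene Dhcr7 and 1.232 in that of Tnnt3. In the stretch only the window from 142000001 lay below 0 (-0.4195). The median absolute allelic difference in XEN cells was 0.3338 over autosomal windows and 1.154 over the members' windows. Whether the lead is particular to the imprinted domain was not tested. The repeats differed by up to 1.63 in the allelic difference. With 1 line of 1 cross, strain and parent cannot be told apart.

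On feeders H19 and Igf2 replicated earlier than in 2i. H19 had 0.32 and 1.61 in F121-6 and 0.52 and 0.26 in F121-9 on feeders, against -0.60 and -0.79 in F121-6 and -0.14 and -0.22 in F121-9 in 2i. Igf2 had 1.34 and 1.296 in F121-6 and 0.78 and 0.78 in F121-9 on feeders, against -0.35 and -0.45 in F121-6 and -0.13 and -0.12 in F121-9 in 2i. The 4 feeder profiles lay above the 4 2i profiles at both genes, in each line too. With the line as a term the difference was 1.12 ± 0.30 (SE) at H19 (limma, adjusted p = 0.028) and 1.31 ± 0.22 at Igf2 (adjusted p = 0.0026).

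**Figure D5:**
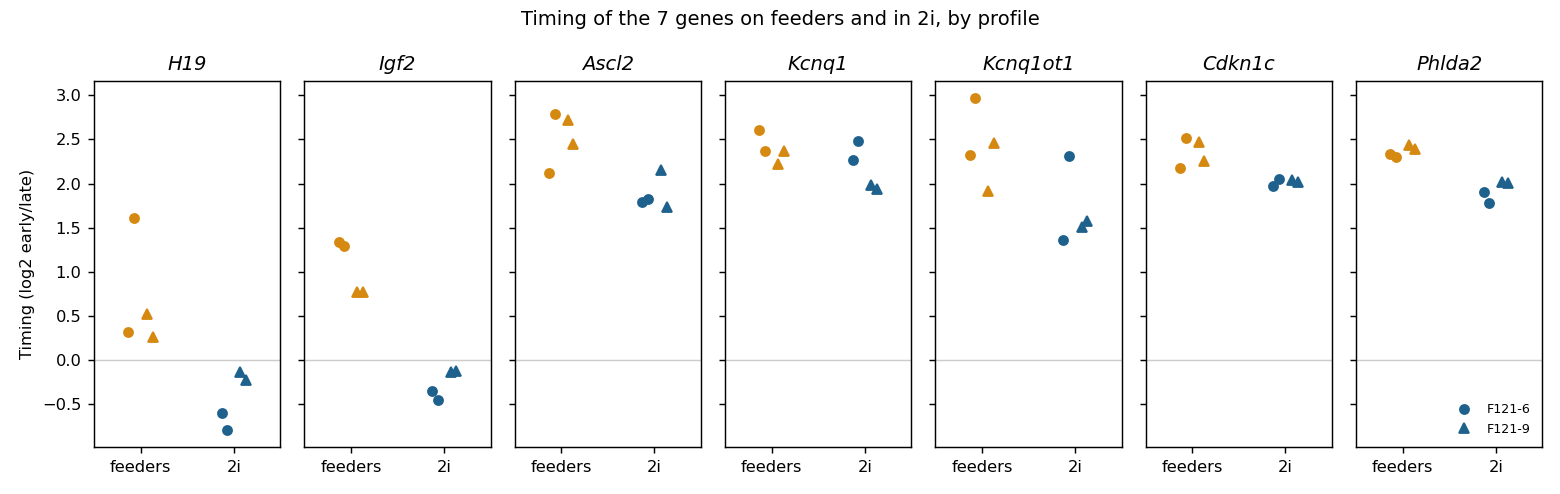
Timing (y axis, log2 early over late, mean of both alleles) of each gene in single ESC profiles on feeders (orange) and in 2i (blue), with F121-6 as circles and F121-9 as triangles. At H19 and Igf2 the feeder profiles lie above all 2i profiles, and also at Cdkn1c and Phlda2, which were not calls.

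The other 5 genes were earlier on feeders by 0.22 (Kcnq1) to 0.73 (Kcnq1ot1) without a call. Ascl2 was a call without feeder replicate 1 of F121-6 (0.77, adjusted p = 0.034) and, like Kcnq1ot1, after centring (0.73, adjusted p = 0.039, and 0.82, adjusted p = 0.046). The count was 2 of 7 earlier and none later on feeders, against 4.92% and 7.86% of windows, or 38.5% of the calls earlier and 52.8% after centring. H19 and Igf2 lie in 1 run of called windows, so these 2 are not independent. Of the 40 windows of the stretch 13 were called, all earlier on feeders, and 8 of them form 1 run from H19 to 142950000, which holds Th, the gene of tyrosine hydroxylase (1.05 ± 0.20, adjusted p = 0.0050), and 2 of 12 neighbours were called. The H19 call was lost without either 2i profile of F121-6 (1.05, adjusted p = 0.099, and 0.97, adjusted p = 0.097) and without a line term (1.12, adjusted p = 0.054). The p-values measure the spread between profiles of 2 lines.

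What feeder cells, which are MEFs, contribute to the profiles was not tested. At the windows of 8 MEF marker genes the median difference of feeders minus 2i was -0.0041 against 0.017 over all windows, with none called earlier and 1 later on feeders. No change of the allelic difference with medium was called (limma): no member had an unadjusted p under 0.05, and no autosomal window was called (0%) while 11.6% had an unadjusted p under 0.05. The spread was wide, since the feeder repeats of F121-6 differed by 2.502 in the allelic difference at Phlda2, with -1.44 and 1.06.

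Other windows of the genome shared the pattern of the domain. Over 27 profiles, which share scaling sets, the highest Pearson's r with the mean of the members' windows outside chromosome 7 was at Mdh1b (0.930), Shc3 (0.922), Enthd1 (0.903), Ccbe1 (0.880) and Gm38481 (0.877). With H19 alone it was at Ncbp1 (0.969), Ebf2 (0.965), Zbtb40 (0.959), Dmrtb1 (0.955) and Syt13 (0.954). With Kcnq1ot1 alone it was at Myh13 (0.810), Dytn (0.804), Id4 (0.804), Cdc16 (0.783) and Htr1a (0.777). Other imprinted genes give a scale for the Kcnq1 difference of 0.50 in MEFs. The paternally expressed genes Ndn and Peg3 had 2.12 (1.66 to 2.77 over embryos) and 1.53 (1.03 to 2.02), 129 earlier, the maternally expressed Meg3 -1.34 (-1.62 to -1.21), Grb10 -0.76 and Igf2r -0.16.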

How the data were processed

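Per the file headers, the authors deposited 1 value per 50 kb window and allele, a log ratio of early over late signal, read here as log2 because its base is not given in the sources used here. Per the submitters' processing notes, mm10, Bowtie2, SAMtools and bedtools were used, and how reads were assigned to alleles is not given in the sources used here. Depth is unknown, so no interval or floor that needs counts is given.

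Allelic difference (129 minus Cas) and timing (mean of both alleles) were averaged over the profiles of a line or embryo. Means and differences over 5 ESC lines, 2 NPC lines and 4 MEF embryos were tested in 1 fit (limma 3.58.1, R 4.3.3; two-sided p) with Benjamini-Hochberg adjustment over 43941 autosomal windows. Culture was tested over the 8 profiles of F121-6 and F121-9. A call needs an adjusted p under 0.05 and a difference of at least 0.5 (alleles, culture) or 1 (timing between cell types). V6.5 and XEN have other parents and stayed out of the fits. Separate cultures are not stated for all repeat profiles, so p-values may measure technical spread there. F121-9 and Cas129 are in both the NPC and the ESC group, and comparisons that name the same cells share them.

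In simulated data with 200 changed windows, 84.0% of MEF allelic differences of 1 were recovered with 5 false calls, 92.0% of ESC ones with 13 and 96.5% of MEF minus ESC timing differences of 2 with 2. The simulated windows were independent of each other. Smaller differences, such as those of the members' alleles, were not simulated, nor were NPC alleles or the test of cross direction. Replicate numbers were checked over 55 pairs of groups: like-numbered profiles correlated at -0.071 to 0.039 in allelic difference and -0.40 to 0.30 in timing after group means were removed, so they share only a number. The text names the members, the genes of fixed lists and the 5 genes of most like timing. The genes singled out of lists were chosen after their values were seen. The members and lists were chosen with earlier results of these data known. RefSeq (GRCm38.p6) gave gene positions and sequences: 4 of 7 members have a promoter entry.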

Additional observations from a re-analysis of the deposited data

Results flagged for a closer look

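Kcnq1 and Cdkn1c had an allelic difference (129 minus Cas) that was higher in MEFs than in ESCs by the test of the difference between cell types, by 0.38 (limma, adjusted p = 0.045) and 0.41 (adjusted p = 0.034). Both are under the size minimum of 0.5 and so are not calls, and 30.9% of all windows pass by adjusted p alone. The MEF embryos and all ESC lines but Cas129 are of opposite crosses, so cell type and cross direction cannot be told apart by this test. Cas129 ESCs, of the same cross as the embryos, had 0.16 at Kcnq1 and 0.10 at Cdkn1c, below all 4 embryos. At Kcnq1ot1 they had 0.33, within the range of the embryos. With 1 such line this was not tested. H19 timing in MEF embryo 4, 2.76, stood apart from the other embryos, which lay between 2.59 and 2.61. Its repeats had 2.58 and 2.94, so 1 of 2 repeats carries the gap. Of 28 groups of lines or embryos looked at in this way 1 was picked out, where chance picks about 1 in 20.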

How the results depend on the processing

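The number of members called was within 1.5 times the reported one in 205 of 220 pairs of result and alternative, and no call changed sign. For MEF alleles it was 0 with the mean over all windows of a gene, without embryos 1 and 3, and with units labelled female only, 3 with no size minimum, and 0 to 1 on leaving out 1 unit (0 without embryo 3). With no size minimum it was 2 for the allelic difference of MEFs minus ESCs, 4 for the timing of NPCs minus ESCs and 4 for that of MEFs minus NPCs. MEFs minus NPCs gave 0 after median centring and 1 after quantile normalization. Culture timing gave 4 after centring, 1 with no line term and 1 to 3 on leaving out 1 profile. The allelic difference of NPCs minus ESCs gave 0 to 1, with 1 call (Ascl2) without Cas129 ESCs. Timing of MEFs minus ESCs, NPCs minus ESCs and MEFs minus NPCs gave 2 to 3 each on leaving out 1 unit. With the replicate number as a block (replicate block), the counts were 1 for MEF alleles, 2 for each timing comparison and for culture timing, and 0 for the other 6 allelic results; like-numbered profiles share only a number. Phlda2 in MEFs minus ESCs lost its call under 8 of 22 alternatives (0.38 to 0.99 there) by falling under the size minimum, and after centring also by its adjusted p of 0.071. Its value was 0.93 without F121 ESCs, 0.94 without embryo 1 and 0.99 without embryo 4. Counts over all windows moved by over 1.5 times as follows. NPC alleles gave 2068, against 0 with NPC lines alone in the fit, 567 and 693 with 1 NPC line, 798 without embryos 1 and 3, 1042 with units labelled female, and 1350 and 1217 with profiles as units in the replicate block and in the random block. NPC minus ESC alleles gave 7063, against 766 with F121-9 and Cas129 only, 3412 and 3680 with 1 NPC line and 3886 without MEFs. MEF alleles gave 5654, against 1959 without embryos 1 and 3, 2541 with units labelled female and 9350 with no size minimum, and MEF minus ESC alleles gave 12023, against 7109 and 7180 under the first 2 of these. Culture timing gave 5618, against 2785 with no line term and 2800 to 3611 without 1 of 4 profiles. With no size minimum, ESC alleles gave 18025 against 11057, MEF minus ESC timing 32292 against 19341, NPC minus ESC timing 22695 against 14273 and MEF minus NPC timing 23457 against 14643. NPCs are 2 lines, and the MEF columns were scaled apart from those of ESCs and NPCs.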
